A study of Mus musculus with 10 samples.

Results

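The mitosis and spindle checkpoint genes are 41 genes whose products drive and monitor cell division. They were chosen by symbol from a fixed list, their transcript rows were summed by gene, and those averaging 5 TPM or more over the 10 libraries were kept, TPM being the share of a transcript among all transcripts, corrected for length. All 41 symbols were found and passed this minimum, among 9853 genes that passed it and 13698 genes in the table. The RNA came from N2A cells, a neuroblastoma line of the mouse, which divides in serum and extends neurites when serum is withdrawn. The cells grew on membranes with 1 µm pores, meant to let neurites through and hold cell bodies back. After 48 h without serum, soma were scraped from the top and neurites were lysed with the membrane. Before this, the cells received 1 of 5 plasmids by transient transfection: a DMPK fragment without CTG repeats (CTG0), the same fragment with 480 CTG repeats (CTG480), which depletes MBNL activity, or 1 of 3 kinesins reduced to the tail without its motor domain (Kif1bβ, Kif1bα, Kif1c), each expressed from a CMV promoter. CTG0 served as control for CTG480, and the Kif1bβ tail as control for the other tails. For each transfection the wells of 1 plate were combined, giving 1 soma and 1 neurite library for each, so the 5 transfections stood in for replicates of the comparison of fractions, and p-values measure the spread between these different transfections. No transfection was repeated, and untransfected cells in the same wells were not separated from transfected ones.

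Mitotic genes are a textbook case of periodic transcription. Cyclin-dependent kinase 1 with its A and B cyclins drives entry into mitosis, the Aurora and Polo-like kinases build the spindle, and the spindle assembly checkpoint holds back the anaphase-promoting complex (APC/C) until every kinetochore is attached. Their transcripts accumulate in G2 and mitosis and are low in cells that have left the cycle. In quiescent cells the MuvB core with pocket proteins (the DREAM complex) binds the cell cycle genes homology region, CHR, in their promoters, and in dividing cells MuvB with B-Myb and FoxM1 activates the same genes. NF-Y, a general activator, binds CCAAT boxes nearby.

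The promoters shared these letters, a feature that the choice of genes did not use. RefSeq promoter windows on GRCm38.p6 (300 bases, from 250 before to 50 after a gene's start) were matched for 35 of the 41 genes, with 38 windows in all. A CHR, searched as TTTGAA or TTTAAA on either strand, was in 78.9% of these windows, against 18.3% of the windows of the genes tested and 27.6% of all 32851 windows. CCAAT on either strand was also in 78.9%, against 38.5% of the windows of the genes tested and 37.4% of all. Both stood together in 71.1% of the mitotic windows, against 7.51% and 10.7%. The E2F sites of G1/S genes, searched as TTTCCCGC or TTTGGCGC, were in 0 of 38 windows, against 3.22% of the windows of the genes tested. With so low a share, 0 of 38 does not set the mitotic windows apart. None of these motifs contains another, and a match is a description of the letters, not a bound site. The windows of 3 genes with more than 1 start overlapped, so by gene the shares were 77.1% for CHR (21.2% of the genes tested) and 77.1% for CCAAT (43.9%). Of 30 distinct TTTGAA sites, 24 read in the direction of the gene, and TTTAAA reads the same on both strands.

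Promoters of 5 genes are shown from −150 to 29 relative to the first base of the gene (counted as 0), as examples of the CHR and CCAAT arrangement in genes that were higher in neurites (Cdc20, Plk1, Ccnb1), in neither fraction (Cenpe) and in soma (Racgap1), as described further on. They were picked after their matches were seen. Capitals mark CHR and CCAAT matches, with CCAAT written ATTGG where it lies on the other strand.
Cdc20, chr4:118437314-118437493, minus strand: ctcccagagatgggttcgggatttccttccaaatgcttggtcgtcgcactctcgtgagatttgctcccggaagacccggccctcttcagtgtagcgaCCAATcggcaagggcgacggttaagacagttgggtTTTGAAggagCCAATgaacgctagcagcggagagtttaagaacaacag
Plk1, chr7:122159285-122159464, plus strand: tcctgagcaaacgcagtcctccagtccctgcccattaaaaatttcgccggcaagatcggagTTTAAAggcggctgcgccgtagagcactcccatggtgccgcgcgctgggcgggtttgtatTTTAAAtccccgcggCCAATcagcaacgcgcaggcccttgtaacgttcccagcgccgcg
Ccnb1, chr13:100786457-100786636, minus strand: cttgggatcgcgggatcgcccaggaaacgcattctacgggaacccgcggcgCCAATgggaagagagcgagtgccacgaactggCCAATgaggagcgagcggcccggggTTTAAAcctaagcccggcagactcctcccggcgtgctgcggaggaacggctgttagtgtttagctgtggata
Cenpe, chr3:135212413-135212592, plus strand: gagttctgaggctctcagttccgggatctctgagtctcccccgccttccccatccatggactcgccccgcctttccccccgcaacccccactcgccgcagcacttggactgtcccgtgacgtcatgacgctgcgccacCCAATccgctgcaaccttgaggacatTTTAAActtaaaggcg
Racgap1, chr15:99651627-99651806, minus strand: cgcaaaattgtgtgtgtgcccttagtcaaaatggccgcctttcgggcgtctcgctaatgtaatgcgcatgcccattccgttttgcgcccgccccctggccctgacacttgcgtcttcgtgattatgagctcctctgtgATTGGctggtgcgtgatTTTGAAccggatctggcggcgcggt

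In Plk1 CHRs at −89 and −29 preceded a CCAAT box at −14, and a further CHR at 30 lay just past the stretch shown. In Cdc20 a CHR at −18 lay between CCAAT boxes at −53 and −8, and in Ccnb1 the CHR at −42 followed CCAAT boxes at −99 and −67. In Racgap1 and Cenpe the CHR began after the annotated start, at 5 and 14. Both motifs occurred in genes of each fraction. Of the 17 genes higher in neurites 13 had a window and 10 had both motifs, of the 4 higher in soma 4 had a window and 4 had both, and of the 20 that did not pass the test 18 had a window and 10 had both. Nek2, Bub1 and Cks2 had CCAAT but no CHR in the window, Anln, Birc5 and Ndc80 had a CHR but no CCAAT, and Mad2l1, Melk, Nuf2, Nusap1 and Pttg1 had neither. Aurkb, Ccna2, Dlgap5, Incenp, Spc24 and Tpx2 were not matched.

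**Figure D1:**
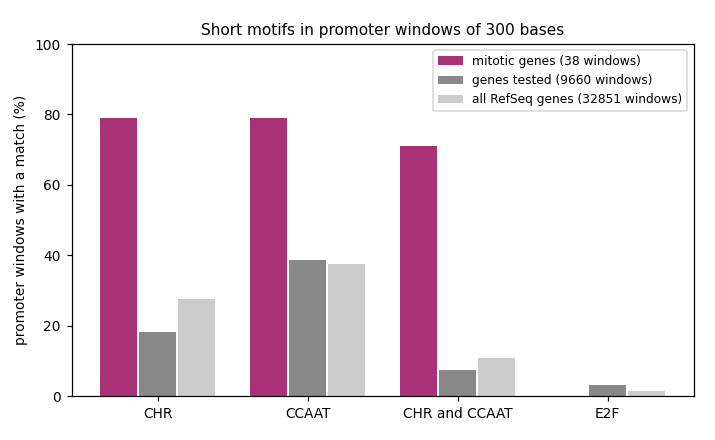
Share of promoter windows (300 bases, RefSeq, GRCm38.p6) with at least 1 match to CHR, CCAAT, both or E2F, in percent of windows, for the mitotic genes, all genes tested and all RefSeq genes. CHR and CCAAT each stood in 78.9% of the 38 mitotic windows, and E2F in 0, near its share of 3.22% over the windows of the genes tested.

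The N2A cells expressed the whole set. The mean over the 10 libraries ran from 13.2 TPM for Aspm to 448 TPM for Racgap1, with a median of 33.8 TPM against 23.4 TPM over all genes tested, and 30 of the 41 genes lay between 20 and 60 TPM. TPM is scaled by transcript length, so these levels can be set side by side. Racgap1, the GTPase-activating subunit of centralspindlin, was the most abundant at 497 TPM ± 18.3 (SD, n = 5) in soma. Top2a, the topoisomerase that untangles sister chromatids, followed with a mean of 204 TPM, and Birc5 (survivin) with 98.8 TPM. Only Racgap1 and Top2a had a mean above 100 TPM. Together the 41 genes summed to 2094 to 2216 TPM in soma libraries and 2099 to 2272 TPM in neurite libraries. Only some of the cells divide at a time, and in pooled RNA fewer dividing cells and less RNA per dividing cell cannot be told apart. The least abundant were Aspm, a spindle pole protein, at 13.2 TPM, the kinase gene Melk at 13.5 TPM, and Ttk, the checkpoint kinase Mps1, at 16.4 TPM.

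Levels in soma varied little between transfections. The coefficient of variation over the 5 soma libraries had a median of 5.68% over the mitotic genes, against 6.46% over all genes tested, and ran from 1.46% for Top2a to 12.5% for Spc25. Top2a had 203, 206, 198, 202 and 203 TPM in soma, listed in the order CTG0, CTG480, Kif1bβ, Kif1bα and Kif1c. The widest ranges in soma were those of Spc25, an NDC80 complex subunit (18.4 to 23.9 TPM, 1.30-fold), Plk1 (20.2 to 25.6 TPM, 1.26-fold) and Melk (11.4 to 14.2 TPM, 1.24-fold). In neurites the median coefficient was 7.49%, against 7.25% over all genes tested.

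Most of the genes that differed between fractions were higher in neurites, and a few were higher in soma, all by less than 1.5-fold on the scale of the deposited values. The comparison sets the relative level of an mRNA in the neurite fraction against that in the soma fraction. The neurite fraction also held nuclear RNA, as described further on, so a ratio alone does not place an mRNA in neurites. The comparison was tested with limma on log2(TPM + 0.1) with transfection as a block, at a Benjamini-Hochberg adjusted p under 0.05 over the 9853 genes tested. Of the 41 mitotic genes, 17 were higher in neurites, 4 were higher in soma and 20 did not pass. Of all genes tested, 19.4% were higher in neurites and 18.6% higher in soma, against 41.5% and 9.76% of the mitotic genes. The median log2 neurite/soma ratio was 0.14 over the mitotic genes and 0.01 over all genes tested. All neurite libraries lay above all soma libraries for 9 mitotic genes (13.7% of all genes tested did so) and below them for 4 (14.3% of all). These splits depend on the scaling, because the deposited values had been evened out between libraries, and the rows of soma libraries summed to 1045625 to 1183538 TPM and those of neurite libraries to 870745 to 892618 TPM. Rescaling the libraries to an equal total moved the median of all genes tested to 0.35 over all named rows and to 0.15 over coding rows, and the mitotic genes then split into 37 and 0, or 29 and 3, for neurites and soma. Of all genes tested, 72% and 2.06% passed in these directions over all named rows, and 44% and 9.06% over coding rows. Relative to the median gene, the median of the mitotic genes stayed at 0.13 under each of these scalings. The fold changes lay between 1.11 and 1.42 for genes higher in neurites and between 1.16 and 1.42 for genes higher in soma. Of the 21 genes past the threshold, 20 had the same sign in all 5 transfections, the exception being Tpx2 (4 of 5). The test used these same ratios, so the shared sign is not separate support. Over all 41 genes, 39% had a ratio above 0 in all 5 transfections (23% of all genes tested). A ratio below 0 in all 5 was seen for 12.2% (20.9% of all).

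**Figure D2:**
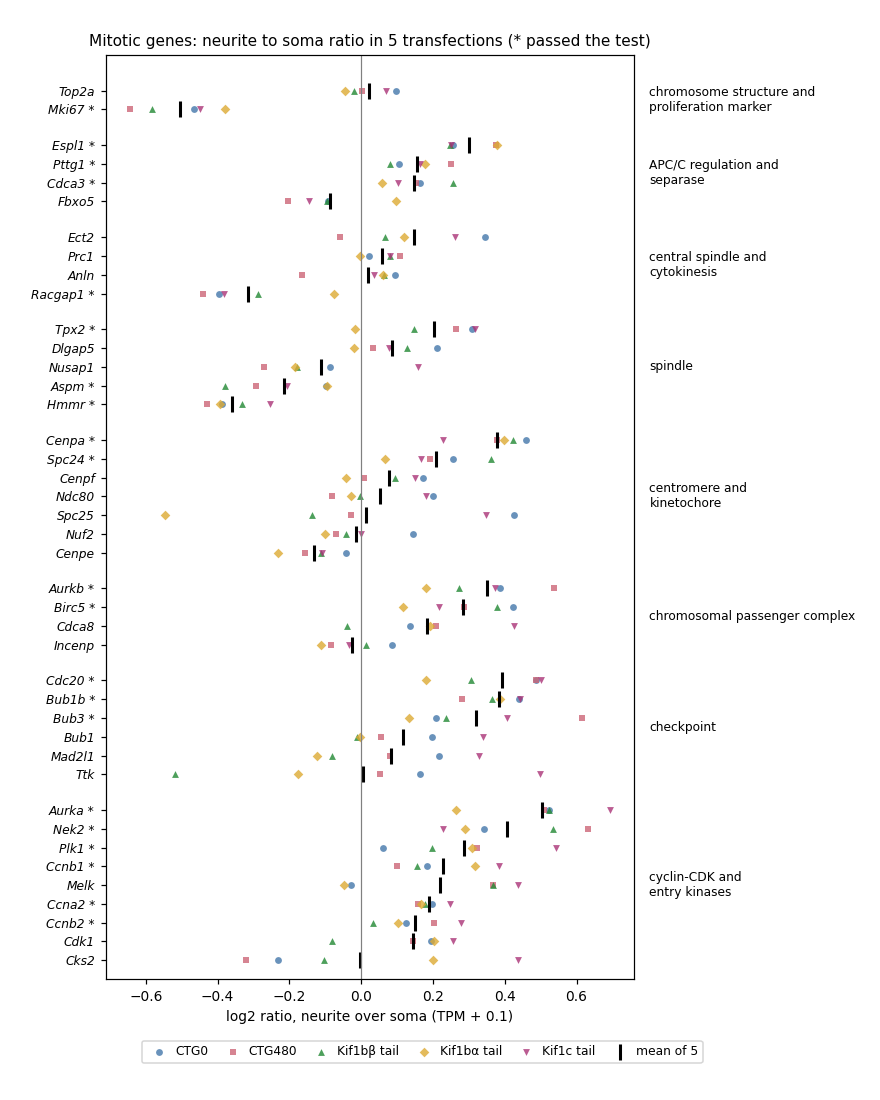
log2 ratio of neurite over soma (TPM + 0.1) for each of the 41 mitotic genes, grouped by role, with a symbol for each of the 5 transfections and a bar for their mean. Asterisks mark the 17 genes higher in neurites and 4 higher in soma by limma, and rescaling the libraries to an equal total over all named rows shifts every gene to the right and leaves 0 higher in soma.

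Among cyclins, CDK1 and the kinases of mitotic entry, 6 of 9 genes passed toward neurites, 0 toward soma and 3 did not pass, with a median log2 ratio of 0.22. Here and in the role groups below, counts are on the deposited scale, change with the scaling as above, and come from few genes. Of all genes tested, 19.4% passed toward neurites and 18.6% toward soma. Aurka (chr2:172356190-172370886), the centrosomal Aurora A kinase, stood highest of all 41. Its soma libraries had 22.4, 25.1, 21.8, 22.2 and 20.7 TPM in CTG0, CTG480, Kif1bβ, Kif1bα and Kif1c, and its neurite libraries 32.2, 35.8, 31.5, 26.6 and 33.5 TPM. Every neurite library was above every soma library, and the Kif1bα tail showed the smallest step. The log2 ratio of Aurka was 0.50 ± 0.06 (SE), with an adjusted p of 0.00125 by limma. The Aurka locus overlaps that of Cstf1, also measured. Nek2 (chr1:191821449-191833049), a kinase that separates centrosomes, had 26.5, 24.3, 22.3, 22.6 and 26.9 TPM in soma and 33.6, 37.7, 32.4, 27.7 and 31.5 TPM in neurites, in the same order. Here too the groups did not overlap, with CTG480 highest in neurites (log2 ratio 0.41 ± 0.07 SE, adjusted p = 0.0036 by limma). Plk1, the Polo-like kinase, was at 0.29 (not past the threshold without CTG480), Ccnb1 (cyclin B1) at 0.23, Ccna2 (cyclin A2) at 0.19 and Ccnb2 (cyclin B2) at 0.15. Ccnb2 was the weakest call of all (adjusted p = 0.0438 by limma), and it was lost without any single transfection. Cdk1 itself did not pass (0.14, adjusted p = 0.0725), and Cks2, a small CDK subunit, was at −0.0038 with ratios from −0.32 in CTG480 to 0.44 in the Kif1c tail. Melk did not pass either, with ratios near 0 in CTG0 and the Kif1bα tail and between 0.37 and 0.44 in the other transfections.

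In the spindle assembly checkpoint, 3 of 6 genes passed toward neurites (19.4% of all genes tested), 0 toward soma (18.6% of all) and 3 did not pass. Cdc20 (chr4:118432901-118437343), the APC/C activator that the checkpoint inhibits, had 23.7, 25.5, 24.8, 22.1 and 22.9 TPM in soma and 33.2, 35.8, 30.7, 25.1 and 32.4 TPM in neurites, in the order used above. It was higher in neurites in 5 of 5 transfections, but its neurite level with the Kif1bα tail fell within the range of the soma libraries. The log2 ratio of Cdc20 was 0.39 ± 0.06 (SE), with an adjusted p of 0.0027 by limma, and its locus overlaps that of Elovl1. Bub1b (chr2:118598202-118641592), which encodes BubR1, had 33.2, 33.8, 31.1, 31.2 and 30.4 TPM in soma and 45.2, 41.1, 40.0, 40.8 and 41.3 TPM in neurites. The groups did not overlap, and the ratio of Bub1b stayed between 0.28 and 0.44 in all 5 transfections (mean 0.38 ± 0.04 SE, adjusted p = 0.000887 by limma). Bub3, its partner at kinetochores, was at 0.32, with a range from 0.13 in the Kif1bα tail to 0.62 in CTG480. Bub1 at 0.12, Mad2l1 (Mad2) at 0.08 and Ttk at 0.0043 did not pass. Ttk had the widest range of ratios of all 41 genes, from −0.52 in the Kif1bβ tail to 0.50 in the Kif1c tail.

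The chromosomal passenger complex carries Aurora B to centromeres and later to the midzone. Of its 4 genes, Aurkb (the kinase, 0.35) and Birc5 (0.28) were higher in neurites, while Cdca8 (borealin, 0.18) and Incenp (the scaffold, −0.03) did not pass. Birc5 (chr11:117849237-117855743), the most abundant of them, had 91.3, 85.6, 85.0, 86.3 and 96.9 TPM in soma and 122.3, 104.3, 110.5, 93.5 and 112.6 TPM in neurites. It was higher in neurites in every transfection, and the groups overlapped only through the neurite library of the Kif1bα tail (adjusted p = 0.00524 by limma).

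At the centromere and kinetochore, 2 of 7 genes passed toward neurites, 0 toward soma and 5 did not pass. These counts are near the shares over all genes tested (19.4% and 18.6%) for so few genes. Cenpa, the centromeric histone H3 variant, was higher in neurites by 0.38 ± 0.05 (SE), with 28.6 TPM ± 1.16 in soma and 37.1 TPM ± 1.70 in neurites (SD, n = 5), and Spc24 by 0.21, a call lost without CTG0 or the Kif1bβ tail. The other subunits of the NDC80 complex, which grips microtubule ends, were at 0.05 (Ndc80), −0.01 (Nuf2) and 0.01 (Spc25). Cenpf (chr1:189640606-189688107), the most abundant gene of this group, had 33.8, 34.7, 31.3, 33.6 and 32.4 TPM in soma and 38.1, 34.9, 33.5, 32.6 and 36.0 TPM in neurites. The groups overlapped, and Cenpf did not pass (0.08, adjusted p = 0.236 by limma). Cenpe, a kinetochore motor, had a ratio below 0 in all 5 transfections and just missed the threshold (−0.13, adjusted p = 0.0522 by limma). With the libraries rescaled over all named rows Cenpe was at 0.21 and passed toward neurites (adjusted p = 0.00988 by limma). Over coding rows it was at 0.0076 and did not pass.

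The genes of spindle proteins split in both directions. Tpx2, which activates Aurora A on microtubules, was higher in neurites by 0.20 (a call lost without CTG0, CTG480, the Kif1bβ tail or the Kif1c tail, and with single transcripts), Hmmr and Aspm were higher in soma, and Nusap1 (−0.11) and Dlgap5 (0.09) did not pass. Hmmr (chr11:40701388-40733464), a spindle and hyaluronan binding protein, had 44.5, 47.3, 43.8, 45.3 and 43.6 TPM in soma and 34.1, 35.1, 34.8, 34.5 and 36.5 TPM in neurites. All soma libraries were above all neurite libraries, and the levels within each fraction were close together (log2 ratio −0.36 ± 0.04 SE, adjusted p = 0.00104 by limma). Aspm (chr1:139454188-139494088) had 13.7, 14.5, 14.6, 13.6 and 14.7 TPM in soma and 12.8, 11.8, 11.2, 12.7 and 12.7 TPM in neurites. The ranges of Aspm came close without overlapping (−0.21, adjusted p = 0.0305 by limma), and its call was lost without CTG480, the Kif1bβ tail or the Kif1c tail. With the libraries rescaled over all named rows Hmmr was at −0.02 and did not pass, and Aspm turned to 0.12 and did not pass.

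In the central spindle and cytokinesis group, Racgap1 was higher in soma and the other 3 genes did not pass. Racgap1 (chr15:99620496-99651656) had 509.8, 510.2, 488.3, 468.7 and 508.1 TPM in soma and 387.3, 375.6, 400.2, 444.7 and 390.1 TPM in neurites. Its groups did not overlap, and with the Kif1bα tail the fractions were nearer to each other than elsewhere (log2 ratio −0.32 ± 0.06 SE, adjusted p = 0.00508 by limma, but 0.02 and not passed with the libraries rescaled over all named rows). Ect2, which acts with Racgap1 in cytokinesis, was at 0.15, Prc1, the antiparallel microtubule bundler, at 0.06 and anillin (Anln) at 0.02.

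In the role group of APC/C regulation and separase, 3 of 4 genes were higher in neurites (19.4% of all genes tested). Espl1 (separase) was higher by 0.30, Pttg1 (securin, its inhibitor) by 0.16 and Cdca3, a trigger of mitotic entry, by 0.15, while Fbxo5 (Emi1, an APC/C inhibitor) was at −0.09 and did not pass. Pttg1 (chr11:43420244-43427463), the most abundant of them, had 51.1, 51.3, 50.2, 45.9 and 54.0 TPM in soma and 55.0, 61.0, 53.0, 52.0 and 60.5 TPM in neurites. It was higher in neurites in each transfection by a small step, and the groups overlapped (adjusted p = 0.0211 by limma). The call of Pttg1 was lost without CTG480 or the Kif1bα tail, and that of Cdca3 without CTG0, CTG480 or the Kif1bβ tail.

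Mki67 and Top2a, both used to stain dividing cells, behaved differently. Mki67 (chr7:135689784-135716450), which encodes the chromosome coat protein Ki-67, had 91.0, 92.8, 86.1, 85.7 and 86.4 TPM in soma and 65.9, 59.3, 57.4, 65.9 and 63.2 TPM in neurites. All soma libraries were above all neurite libraries, and Mki67 was the lowest of the 41 genes in neurites (−0.50 ± 0.05 SE, adjusted p = 0.00059 by limma, or −0.17 and not passed with the libraries rescaled over all named rows). Top2a was level, with a mean of 202 TPM ± 2.96 for soma and 205 TPM ± 9.91 for neurites (SD, n = 5) and a log2 ratio of 0.02 (SE 0.04).

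**Figure D3:**
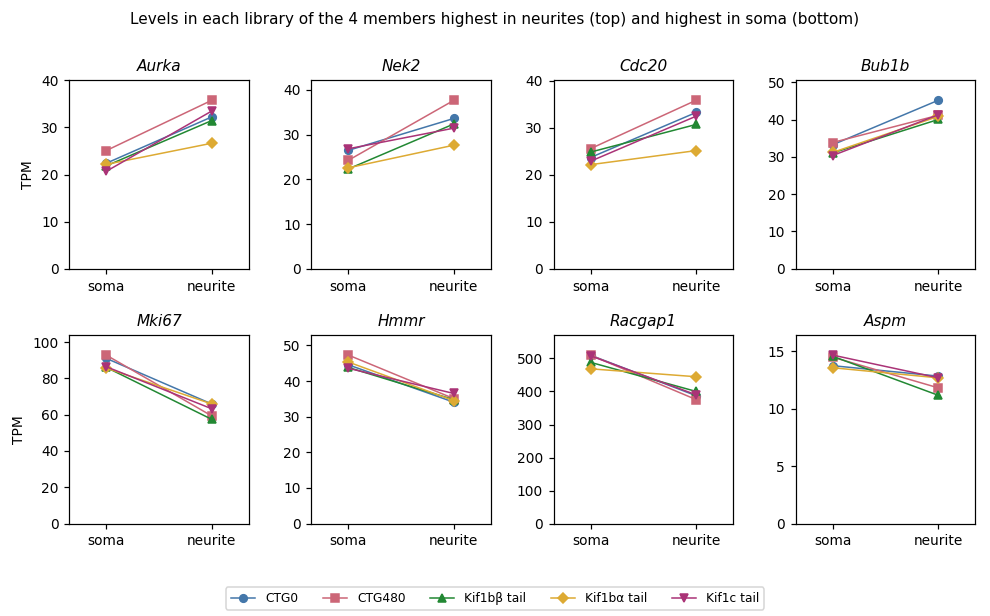
TPM in the soma and neurite library of each transfection, joined by a line, for the 4 genes with the highest neurite/soma ratio among those past the threshold (top) and the 4 with the lowest (bottom). Every line rises in the top row and falls in the bottom row on the deposited scale, and with the libraries rescaled over all named rows the mean ratio of Racgap1 and Aspm turned to 0.02 and 0.12.

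The neurite fraction was not free of nuclear RNA. On the deposited scale Malat1, Neat1, Kcnq1ot1 and Airn, RNAs that stay in the nucleus, were all 4 lower in neurites. Their log2 ratios were −0.43, −0.34, −0.83 and −1.01. Rescaling over all named rows moved the median of all genes tested from 0.01 to 0.35, a shift similar in size to the ratio of Neat1. Whether the 4 RNAs still passed on that scaling is not given here. With Meg3, also listed (0.30 TPM), the summed level was 1138 to 1439 TPM in neurite libraries against 1563 to 1914 TPM in soma. Noncoding rows took 24.2% to 27.8% of the TPM of neurite libraries and 33.0% to 37.9% of that of soma libraries. Of 12 neuroblastoma and neuronal markers, 9 had at least 5 TPM, among them Phox2a at 126 TPM and Tubb3 at 405 TPM, and Th had 1.11 TPM. On the deposited scale 2 of the 9 were higher in neurites (Phox2a and Tubb3) and 3 in soma (Chga at −0.47, Stmn2 at −0.46 and Hand2 at −0.15). The other 4 did not pass, and 19.4% and 18.6% of all genes tested passed in these directions. Of the markers of fibroblasts, astrocytes, macrophages and endothelium, only 4 of 18 were measured, 0 of them astrocyte markers. None of these 4 reached 5 TPM, and no list summed to more than 4.38 TPM in a library. Of 4 skeletal muscle markers, Myh3 reached it and did not pass between fractions (0.06). The part of carried-over cell bodies in the ratios of the mitotic genes was not tested.

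Transcript length went with the ratio among the mitotic genes. With coding length from GENCODE M21 on GRCm38 for the most abundant transcript of each gene, Pearson's r of the mean log2 ratio with log2 coding length was −0.39 and Spearman's coefficient −0.35 over the 41 genes, against −0.20 and −0.21 over 9411 coding genes tested. These are correlations across genes, which share libraries and are not replicates, and no p is given. Within the transfections r lay between −0.42 (Kif1c tail) and −0.29 (CTG0). Genes higher in neurites had a median coding length of 1197 nucleotides, those that did not pass 1930.5 and the 4 higher in soma 5877. No soma gene lay near that median: Racgap1 had 1887 and Hmmr 2385 nucleotides, close to the genes that did not pass, and the other genes were far longer. Mki67 and Aspm, both higher in soma on the deposited scale but not past the threshold with the libraries rescaled over all named rows, have the longest coding parts (9534 and 9369 nucleotides). Other genes departed from this order: Espl1, at 6357 nucleotides, and Bub1b, at 3159, were higher in neurites, and Cks2, the shortest at 240, was level. Whether length acts on the ratio was not tested. Without Mki67, left out after its values were seen, r was −0.29. The length of the 3′ UTR showed r of −0.05 over the mitotic genes, against −0.16 over all genes tested.

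**Figure D4:**
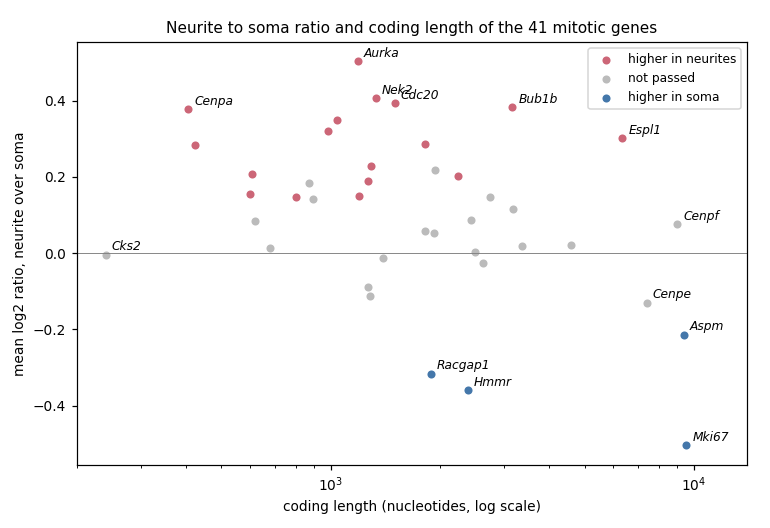
Mean log2 neurite/soma ratio against coding length in nucleotides (log scale) for the 41 mitotic genes, coloured by the limma call. Genes higher in neurites have a median of 1197 nucleotides, with Espl1 the longest at 6357. The 4 higher in soma on the deposited scale (0 with the libraries rescaled over all named rows) are Racgap1 at 1887, Hmmr at 2385, Aspm at 9369 and Mki67 at 9534.

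For 31 of the 41 genes the table held a single transcript, and 6 had more than 1 at a mean of at least 5 TPM. kallisto divides reads that fit several transcripts between them, so the split is less certain than the sum. In Racgap1 the major transcript NM_012025 had 320 TPM in soma and 228 TPM in neurites (−0.49, adjusted p = 0.00582 by limma over transcripts), while NM_001253808 had 172 and 161 TPM (−0.09) and NM_001253809 had 5.72 and 10.6 TPM, with 0 in the soma of CTG480 and of the Kif1c tail. Of its 3 transcripts 1 passed, and the difference between transcripts was not itself tested. In Ect2, NM_001177626 was higher in neurites (0.51, adjusted p = 0.00773 by limma) and NM_007900 was at −0.14 and did not pass. In Birc5, NM_009689 was higher in neurites (0.35, adjusted p = 0.00793) and NM_001012273 was at −0.28 and did not pass. In Cenpa, NM_001302129 was at 0.10, NM_007681 at 0.94 and NM_001302131 at 0.88, and none of them passed. Tpx2 was split over 5 transcripts between 5.01 and 11.3 TPM, of which NM_001141977 alone passed (1.24, adjusted p = 0.00638), with NM_001141976 at −0.91, NM_001141975 at 0.38, NM_028109 at 0.26 and NM_001141978 at 0.14. In Prc1, NM_145150 was at 0.19 and NM_001285998 at −0.14, neither past the threshold.

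In the wider mitotic machinery genes passed in both directions. For the 17 measured genes of APC/C subunits and E2 enzymes, 6 passed toward neurites and 1 toward soma, from Anapc11, its RING subunit (0.44), to Anapc10 (−0.50). Of 12 mitotic kinesins, 5 passed toward neurites and 0 toward soma, with Kif20a, which carries the passenger complex to the midzone, at 0.33 and Kif18b at 0.18. Of 26 other kinetochore genes, 7 were higher in neurites, up to Cenpw at 0.55, and 3 in soma, down to Cenpk at −0.31. Of 18 condensin and cohesin genes, 2 passed toward neurites (Ncaph2 at 0.20 the highest) and 4 toward soma, among them Smc1a, a cohesin ring ATPase, at −0.46. Of 11 regulators of mitotic genes, 3 passed toward neurites and 0 toward soma, namely Mybl2 (B-Myb, 0.27), Rbbp4 (0.24) and Foxm1 (0.19). Of 10 CDK inhibitors and G1 cyclins and kinases, 7 were higher in neurites, with Cdkn2c (p18) highest at 0.68, and Ccne2 (cyclin E2) was the 1 higher in soma, at −0.36. The shares over all genes tested are 19.4% and 18.6%, as above.

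No mitotic gene passed the test for a different localization in perturbed cells. This comparison set the ratios of CTG480, the Kif1bα tail and the Kif1c tail against those of CTG0 and the Kif1bβ tail. By limma 0 of 41 genes passed at an adjusted p under 0.05, as did 0% of all genes tested, and at an unadjusted p under 0.05 the counts were 0 and 512. Plk1 had the smallest p of the 41 genes, with a ratio 0.26 higher in perturbed cells (adjusted p = 0.942 by limma). The median difference was 0.0024 over the mitotic genes and 0.00082 over all genes tested.

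The single comparisons of transfections have 1 library per fraction on each side, so they are given as differences of log2 ratios with no test. For scale, the SD of a gene's ratio over the 5 transfections had a median of 0.12 over the mitotic genes and 0.14 over all genes tested. From CTG0 to CTG480, 7 mitotic genes had a ratio higher by at least 0.10 (31.1% of all genes tested) and 18 had one lower by at least 0.10 (32.1% of all), and 0 differed by 0.50 or more (7.26% of all), with a median of −0.08. The highest were Bub3 (0.41) and Melk (0.39) and the lowest Spc25 (−0.45) and Ect2 (−0.40). Bub3 had 42.8 and 37.8 TPM in the soma of CTG0 and CTG480 and 49.5 and 57.9 TPM in neurites, so it moved in opposite directions in the fractions.

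The Kif1bα and Kif1c tails were both set against the Kif1bβ tail, and these comparisons share that control. With the Kif1bα tail 11 mitotic genes were higher by at least 0.10 (32.5% of all genes tested) and 14 lower (30.5% of all), and 0 differed by 0.50 or more (7.36% of all), with a median of −0.03 (0.05 with the libraries rescaled over all named rows, where all genes tested had a median of 0.08). With the Kif1c tail 19 were higher (32.8% of all) and 5 lower (32.9% of all), and 2 differed by 0.50 or more (8.68% of all), with a median of 0.09 (0.21 on that rescaling, with 31 higher and 1 lower, where all genes tested had a median of 0.12, 53.6% higher and 18.2% lower). The median neurite/soma ratio of the mitotic genes was 0.23 with the Kif1c tail and 0.17 in CTG0, and 0.10 in CTG480, 0.07 with the Kif1bβ tail and 0.06 with the Kif1bα tail. The ratio was above 0 for 32 of 41 genes in CTG0, 27 in CTG480, 24 with the Kif1bβ tail, 22 with the Kif1bα tail and 33 with the Kif1c tail, where the shares over all genes tested lay between 50.2% and 53.1%.

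Ttk had the highest difference in both comparisons, 0.34 with the Kif1bα tail and 1.02 with the Kif1c tail. It had 17.7, 17.9 and 14.4 TPM in the soma of the Kif1bβ, Kif1bα and Kif1c tails and 12.3, 15.8 and 20.5 TPM in neurites. Its soma level was lower and its neurite level higher with the Kif1c tail than with the other tails. Cks2 differed by 0.30 and 0.54 in the 2 comparisons. The lowest differences with the Kif1bα tail were those of Melk (−0.42) and Spc25 (−0.41), which stood at 0.07 and 0.48 with the Kif1c tail. The lowest with the Kif1c tail were Nek2 (−0.31) and Spc24 (−0.20), which stood at −0.24 and −0.30 with the Kif1bα tail.

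**Figure D5:**
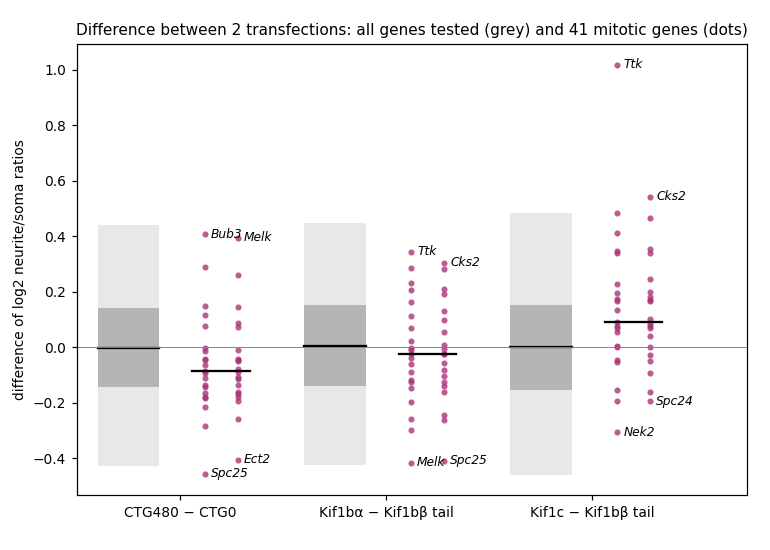
Difference of the log2 neurite/soma ratio between 2 transfections, for the 41 mitotic genes (dots, spread sideways for legibility, with the 2 highest and 2 lowest named) and for all 9853 genes tested (boxes from the 5th to the 95th and from the 25th to the 75th percentile), with lines at the medians. With the Kif1c tail the mitotic median lay at 0.09 and Ttk at 1.02, and no mitotic gene reached 0.50 in the other comparisons.

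The levels of the mitotic genes, averaged over both fractions, were compared between the 3 kinesin tail transfections and the 2 DMPK fragment transfections. No gene passed (0 of 41, and 0% of all genes tested, by limma at an adjusted p under 0.05), and at an unadjusted p under 0.05 the counts were 0 and 504. The direction was shared by most of the set, with 36 of 41 genes (87.8%) lower with the tails against 48.7% of all genes tested, and a median log2 difference of −0.05 against 0.0024. Genes with shared periodic transcription can move together, and all were measured in the same libraries, so they are not replicates of this contrast. When 1 transfection was left out, the genes above the median of all genes tested numbered between 3 and 11 of 41. The lowest was Espl1 at −0.16 (adjusted p = 0.958 by limma) and the highest Spc25 at 0.05. The tail and DMPK plasmids differ in backbone and insert, and these cannot be told apart here.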

How the data were processed

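Directional libraries were made after removal of rRNA from 300 ng of RNA. The authors ran kallisto 0.43.0 against RefSeq (mm10) and evened the TPM out between libraries with cyclic loess, and the deposited signal values are these TPM on a linear scale. Counts were not used here, so depth is unknown. A further deposited table of the authors' own log2 neurite/soma values was not used. Rows were summed by gene, leaving out 5 plasmid rows and 3 rows without a gene, and genes with a mean of at least 5 TPM were kept. limma 3.58.1 in R 4.3.3 (lmFit, eBayes with a trend, 2-sided) was run on log2(TPM + 0.1), with p adjusted over all 9853 genes; transfection was a block because both fractions came from the same wells. Deviations of same-transfection libraries correlated at −0.03 to 0.05. On simulated data for this comparison of 9853 genes, 39 of 50 genes changed by 0.5 and 13 of 50 changed by 0.25 were recovered. So were 36 of 50 changed by −0.5 and 49 of 50 changed by 1, with 10 false calls. Apart from these genes the simulation held no difference between fractions, whereas 19.4% and 18.6% of real genes passed. The adjusted threshold therefore differs, and these shares do not carry over to the real comparison. Other values used Python 3.11.15, numpy 2.4.6, pandas 2.3.3, scipy 1.17.1 and matplotlib 3.10.9. Protein length was planned for the length relation, and coding length from GENCODE M21 was used instead.

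Values in every library are given for the 4 genes past the threshold that were highest in neurites, the 4 highest in soma and the most abundant gene of each role group that held none of these. Also named are the 2 highest and 2 lowest genes of each comparison of transfections, the extremes in level and, from each other list, the highest and lowest gene past the threshold. Genes, lists and rules were chosen with earlier results of these data known. Alternatives changed the value added to TPM, the minimum, the scaling, the block, the eBayes trend, the use of single transcripts and the transfections included. The motif letters and the correlation without Mki67 were varied after seeing the data. With TTTGAA alone as the CHR, the windows of Birc5, Ccnb1 and Cenpe, which match only TTTAAA, would no longer count.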

Additional observations from a re-analysis of the deposited data

Results flagged for a closer look

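Over the 41 mitotic genes, the 5 neurite/soma ratios, the 5 soma levels and the 5 neurite levels were each looked at for 1 library far from the other 4 (Dixon's gap ratio above 0.71), and 4 of 123 sets had such a library, where chance gives about 1 in 20. Ccnb1 had 86.8 TPM in the neurites of the Kif1c tail, with the other neurite libraries between 77.3 and 79.7 TPM. Bub1b had 45.2 TPM in the neurites of CTG0, with the others between 40.0 and 41.3 TPM, and Ect2 had 44.2 TPM there, with the others between 38.1 and 39.9 TPM. The log2 neurite/soma ratio of Anln was −0.17 in CTG480 and between 0.04 and 0.09 in the other transfections.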

How the results depend on the processing

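The number of mitotic genes higher in neurites lay between 12 and 15 when 1 transfection was left out, and the number higher in soma between 3 and 4, against 17 and 4 with all 5. Of the 21 genes past the threshold, 14 kept their call whichever transfection was left out: Ccna2, Ccnb1, Aurka, Nek2, Bub1b, Bub3, Cdc20, Aurkb, Birc5, Cenpa and Espl1 in neurites and Hmmr, Racgap1 and Mki67 in soma. Over all genes tested the counts without 1 transfection ran from 1281 to 1707 toward neurites and from 1357 to 1646 toward soma. For a higher level with the kinesin tails, between 0 and 1 gene of all those tested passed when 1 transfection was left out (1 without CTG480). With the libraries rescaled to an equal total over all named rows, 37 mitotic genes passed toward neurites and 0 toward soma (7093 and 203 of all genes, median 0.48), and 8 genes changed sign: Cks2 (0.34), Incenp (0.31), Cenpe (0.21), Nuf2 (0.32), Nusap1 (0.22), Aspm (0.12), Racgap1 (0.0226) and Fbxo5 (0.25). The median difference between perturbed and control ratios was then 0.0859 (all genes 0.0839) and the median level difference of tails and fragments −0.10 (all genes −0.048). With the Kif1bα tail 7 genes were then lower (19.8% of all genes, median 0.0521 against 0.083), and with the Kif1c tail 31 were higher (53.6% of all), 1 lower (18.2%) and 5 different by 0.50 or more, with a median of 0.21 against 0.12. Relative to all genes, these medians differed from those on the deposited scale by less than 0.01. Over coding rows only, 29 were higher in neurites (4339 higher and 893 lower of all genes, median 0.28), 9 were lower with the Kif1bα tail (24.2% of all genes) and 4 differed by 0.50 or more with the Kif1c tail. With single transcripts, 5, 2 and 4 genes differed by 0.50 or more in CTG480, the Kif1bα tail and the Kif1c tail, and at a mean of at least 20 TPM 1 did with the Kif1c tail. For the counts at 0.50 or more in this paragraph, shares over all genes or transcripts were not computed, so they have no background to be read against. Without Mki67, chosen after seeing the data, the correlation with coding length was −0.29. Without the transfection block 17 mitotic genes passed toward neurites and 5 toward soma (2103 and 1965 of all genes). Depth is unknown, so counting error could not be given, and fractionation was done once per transfection, so that error of the fractionation and differences between transfections cannot be told apart.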
